A study of Mus musculus with 7 samples.

Results

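The 41 genes described here encode the proteins that carry glucose into the cell, turn it into pyruvate and lactate, export the lactate, and run the pentose phosphate pathway. They were chosen by name and function, but with earlier results of these data known. Their probes were found by accession among the 25346 genes that could be tested. Of those, 16689 carried a gene symbol, and the rest were targets counted by their own accession. All 41 were on the array and all 41 passed the filter on dim signals. In 40 of them the signal was well above background on all 7 arrays, and in Pdk4 on 2 wild-type and 2 knockout arrays. The cells were mouse group 2 innate lymphoid cells (ILC2s), lymphocytes that lack antigen receptors and make type 2 cytokines. The wild-type group comprised 4 arrays and the knockout group 3 arrays, from mice homozygous for a GFP cassette inserted in the Gfi1 locus. That allele removes Gfi1, a transcriptional repressor, from every cell of the animal and reports its promoter activity. All mice of both groups received IL-25 daily for 4 days, ILC2s positive for Sca-1, ICOS, CD127 and c-Kit and negative for lineage markers were sorted from mesenteric lymph nodes on day 5, and the cells were then grown for 6 days with IL-2 at 50 ng/ml, IL-7 at 10 ng/ml and IL-25 at 50 ng/ml. The wild-type pools held 3 mice each and the knockout pools 6, so the values describe pooled, cytokine-expanded cells.

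Glucose enters lymphocytes through facilitative transporters and is trapped by hexokinase. The upper steps of glycolysis spend ATP to make triose phosphates, and the lower steps make ATP and pyruvate. Pyruvate is reduced to lactate or enters mitochondria through pyruvate dehydrogenase, which the pyruvate dehydrogenase kinases switch off, while the pentose phosphate pathway diverts glucose 6-phosphate to NADPH and ribose. Activated and dividing lymphocytes are known for high glucose uptake and lactate release.

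On every array the ILC2 sample was labelled red (Cy5) and a common mouse reference RNA green (Cy3). A value is the log2 ratio of the sample to the reference, except where the text names a channel, and a difference is knockout minus wild type. A gene was called when limma's moderated test gave an adjusted p under 0.05 over all 25346 genes. Values are given for wild-type arrays 1 to 4 and then knockout arrays 1 to 3. With 7 arrays the precision is limited, and in a pooled sample fewer cells of a type and less RNA per cell cannot be told apart. Between 67.4% and 80.9% of probes lay above background on an array. The correlation of log ratios over genes was 0.979 to 0.989 within the wild type, 0.969 to 0.98 within the knockout and 0.942 to 0.969 across the groups. The scanner software marked knockout array 3 for evaluation and the other 6 arrays as in range. The Gfi1 probe read 1.90, 1.88, 2.36 and 1.96 in wild type and 4.29, 4.26 and 4.29 in the knockout. What the probe reads from the inserted allele was not examined, so it checks no label. Xist minus Ddx3y, a mark of the sex of the pooled mice, was -1.05, -0.94, 6.54 and 7.02 in wild type and -1.75, -1.33 and 7.61 in the knockout, so both groups held both kinds of pool.

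Of the 41 genes, 16 fell in the knockout, 1 rose and 24 were not called. Over all genes tested, 7.52% were called: 4.24% fell and 3.28% rose. Shares over all genes take in the targets without a symbol, and shares among genes with a symbol are not given. The fallen genes made up 39% of the 41, and 32 of the 41 differences were below 0. The median difference over the 41 was -0.33, against -0.01 over all genes tested. The 4 wild-type and 3 knockout values did not overlap in 20 of the 41 on the lower side (48.8%, against 10.2% of all genes) and in 1 on the higher side (against 8.08%). In either direction the groups did not overlap in 18.3% of all genes. The falls ran from 1.28-fold in Pgam1 to 2.57-fold in Slc2a3. By role, 2 of 3 uptake genes fell, 6 of 10 genes of the upper steps, 2 of 4 genes that set fructose 2,6-bisphosphate, 3 of 9 genes of the lower steps, 1 of 8 genes of pyruvate and lactate handling and 2 of 7 pentose phosphate genes. The median differences of those groups, in the same order, were -1.27, -0.63, -0.27, -0.21, -0.08 and -0.03. These groups were not tested against each other. The calls are on the ratio, and of the 16 fallen genes 10 were also called in the sample channel alone.

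**Figure D1:**
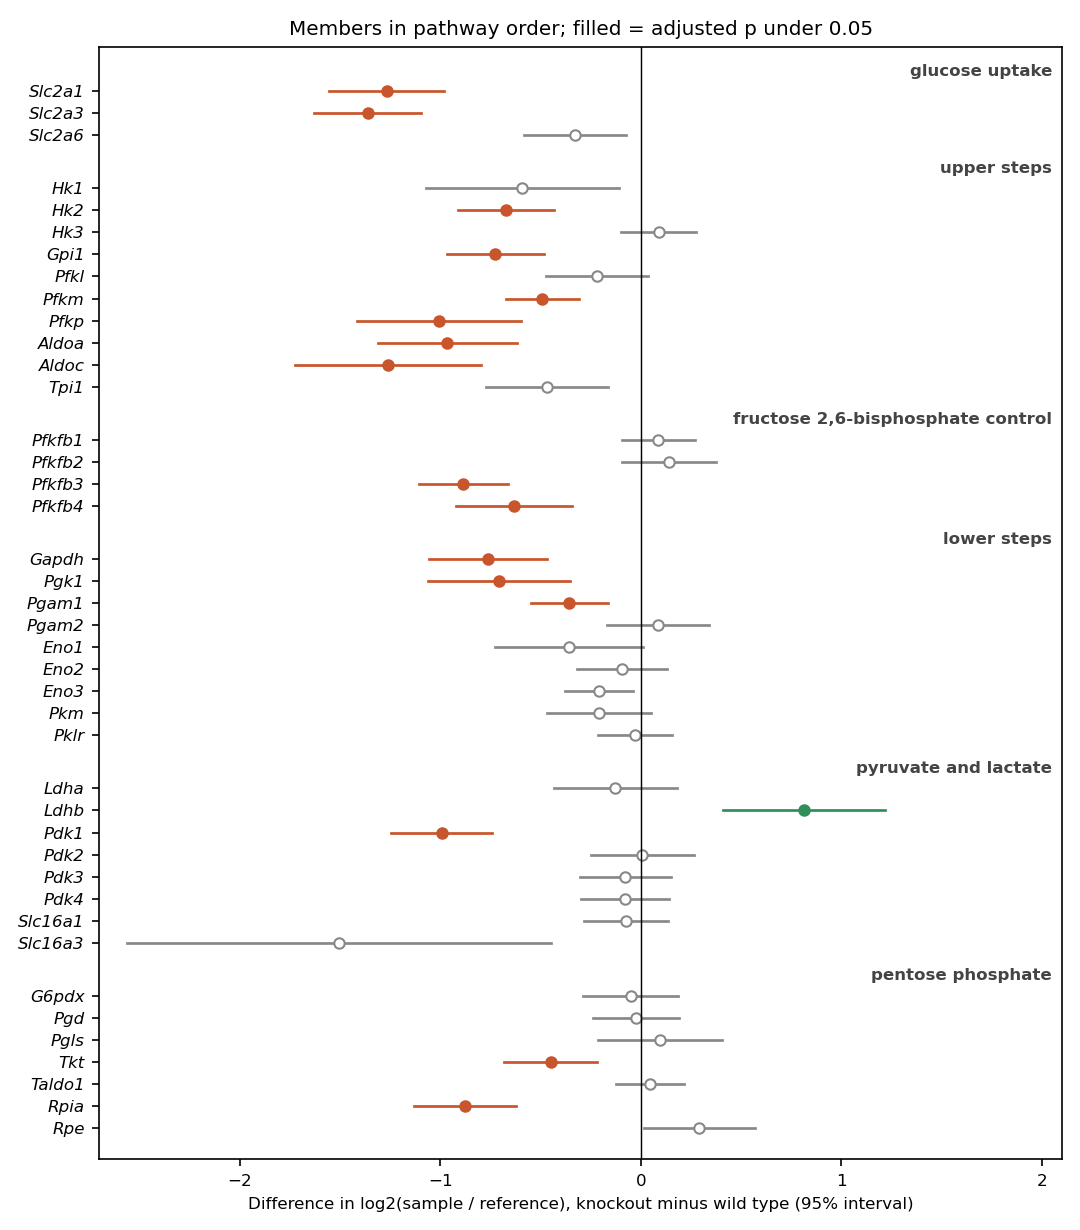
Log2 difference, knockout minus wild type, of each of the 41 genes, ordered along the pathway, with the 95% confidence interval of limma's fit (4 wild-type and 3 knockout arrays). Filled points are the called genes; the points of the uptake and upper-step genes lie mostly to the left of 0, down to -1.36 for Slc2a3, and Ldhb is the called gene to the right.

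Promoter sequence is shown for 4 of the 5 genes that were also called with slide as a block and for the lactate dehydrogenase pair, whose differences parted. The 200 bases before the annotated start come from RefSeq (GRCm38.p6), the first listed start where a gene has several, written 5′ to 3′ on the gene's strand. Capitals mark ACGTG or GCGTG on either strand, the core of the hypoxia response element. ACGTG, but not GCGTG, also lies inside the E-box CACGTG.
Slc2a1, chr4:119108545-119108744, + strand: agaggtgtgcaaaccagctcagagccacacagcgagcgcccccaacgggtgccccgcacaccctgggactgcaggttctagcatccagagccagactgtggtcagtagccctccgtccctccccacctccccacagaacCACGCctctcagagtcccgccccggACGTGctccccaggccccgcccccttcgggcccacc
Pfkfb3, chr2:11553930-11554129, - strand: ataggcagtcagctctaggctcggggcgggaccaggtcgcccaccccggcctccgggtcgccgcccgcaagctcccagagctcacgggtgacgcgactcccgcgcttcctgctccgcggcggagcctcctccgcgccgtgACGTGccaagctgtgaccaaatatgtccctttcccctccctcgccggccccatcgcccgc
Pdk1, chr2:71873024-71873223, + strand: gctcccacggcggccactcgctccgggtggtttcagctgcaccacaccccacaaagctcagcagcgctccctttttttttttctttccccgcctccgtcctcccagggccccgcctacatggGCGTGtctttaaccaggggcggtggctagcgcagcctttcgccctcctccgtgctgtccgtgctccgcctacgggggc
Rpia, chr6:70792176-70792375, - strand: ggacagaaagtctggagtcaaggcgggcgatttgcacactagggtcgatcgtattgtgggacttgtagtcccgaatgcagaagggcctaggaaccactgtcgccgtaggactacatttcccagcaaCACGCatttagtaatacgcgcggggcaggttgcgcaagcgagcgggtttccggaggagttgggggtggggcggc
Ldha, chr7:46845604-46845803, + strand: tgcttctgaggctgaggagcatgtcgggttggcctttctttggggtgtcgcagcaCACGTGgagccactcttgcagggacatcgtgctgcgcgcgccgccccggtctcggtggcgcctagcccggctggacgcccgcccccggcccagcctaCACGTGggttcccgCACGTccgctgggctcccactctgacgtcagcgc
Ldhb, chr6:142507958-142508157, - strand: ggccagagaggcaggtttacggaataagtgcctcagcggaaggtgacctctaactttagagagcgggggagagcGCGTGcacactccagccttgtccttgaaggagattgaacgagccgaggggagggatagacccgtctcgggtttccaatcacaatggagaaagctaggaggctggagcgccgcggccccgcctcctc
Among promoter windows of 300 bases (250 before the start and 50 after it), the core stood in 44 of 61 windows of 40 matched members (72.1%) and in 43.8% of all 32851 windows. It stood in 19 of 23 windows of genes that fell (82.6%) and in 24 of 37 windows of genes not called (64.9%). Some genes have several windows, which can overlap. Counted by gene, any window held the core in 14 of 15 that fell and 19 of 24 not called. Among all genes with windows the count was 12628 of 27025. No window was available for Slc2a3, which fell. CACGTG stood in 9.84% of member windows and in 7.15% of all. The member windows were also richer in G and C, at a mean of 58.8% against 53.8%. A match is only a description of the letters, and Ldha, which was not called, holds more matches than any of the other 5 shown.

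Both main glucose transporters fell. Slc2a1, the transporter known as GLUT1 that carries most basal uptake in activated lymphocytes, read -1.49, -1.24, -1.24 and -1.51 in wild type and -2.39, -2.64 and -2.87 in the knockout. Every knockout array lay below every wild-type array, a 2.41-fold fall (log2 difference -1.27 ± 0.13, SE; limma adjusted p = 0.000512). Slc2a3, a high-affinity transporter (GLUT3), read 2.80, 3.15, 3.26 and 2.93 in wild type and 1.57, 1.74 and 1.71 in the knockout. The groups were again apart, by 2.57-fold (-1.36 ± 0.12, SE; adjusted p = 0.000224). Slc2a6, a transporter of lysosomes, read 0.92, 0.83, 0.83 and 1.24 against 0.54, 0.68 and 0.67. Its groups did not overlap either, but the difference of -0.33 missed the threshold (adjusted p = 0.131).

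6 of the 10 upper-step genes fell, and they included a hexokinase, the isomerase, a pair of phosphofructokinases and both aldolases. Hk2, the inducible hexokinase, read 0.59, 0.89, 0.58 and 0.48 in wild type and -0.11, -0.01 and 0.01 in the knockout (-0.67 ± 0.11, SE; adjusted p = 0.00514). Gpi1, which turns glucose 6-phosphate into fructose 6-phosphate, read -0.68, -0.33, -0.27 and -0.49 against -1.20, -1.21 and -1.09 (-0.72, adjusted p = 0.00374). In both genes all 3 knockout arrays lay below all 4 wild-type arrays, and the 3 Gpi1 probes ran from -0.72 to -0.79. Pfkp, the platelet-type phosphofructokinase, read 0.18, 0.50, 0.79 and 0.62 against -0.18, -0.87 and -0.39, a 2.01-fold fall (-1.0 ± 0.18, SE; adjusted p = 0.00982). Pfkm, the muscle-type enzyme, read -1.41, -1.31, -1.25 and -1.34 against -1.90, -1.72 and -1.84 (-0.49, adjusted p = 0.00633).

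The aldolases split fructose 1,6-bisphosphate. Aldoc read 0.47, 1.14, 1.48 and 1.0 in wild type and -0.34, -0.35 and -0.02 in the knockout, a 2.4-fold fall (-1.26 ± 0.21, SE; adjusted p = 0.006). Aldoa read 0.12, 0.75, 0.66 and 0.79 against -0.37, -0.32 and -0.46 (-0.96 ± 0.15, SE; adjusted p = 0.00545). In the ratios wild-type array 1 was the lowest wild-type array for both genes, and still lay above all 3 knockout arrays. In the sample channel alone Aldoa differed by -0.27 and was not called. The other 4 upper-step genes were not called. Hk1, the constitutive hexokinase, read 0.96, 1.0, 1.11 and 0.84 against 0.78, 0.63 and -0.25, and its difference of -0.59 (adjusted p = 0.153) was -0.27 without knockout array 3. Tpi1, which interconverts the triose phosphates, read 0.87, 1.25, 0.85 and 0.87 against 0.39, 0.34 and 0.76 (-0.47, adjusted p = 0.0757). It was called without knockout array 3 (-0.60, adjusted p = 0.0246) and in the sample channel alone (-0.48, adjusted p = 0.011), and its second probe, at -0.52, was called in the test over all probes. The liver-type phosphofructokinase Pfkl differed by -0.22 (95% interval -0.47 to 0.03) and Hk3 by 0.09 (-0.10 to 0.28).

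**Figure D2:**
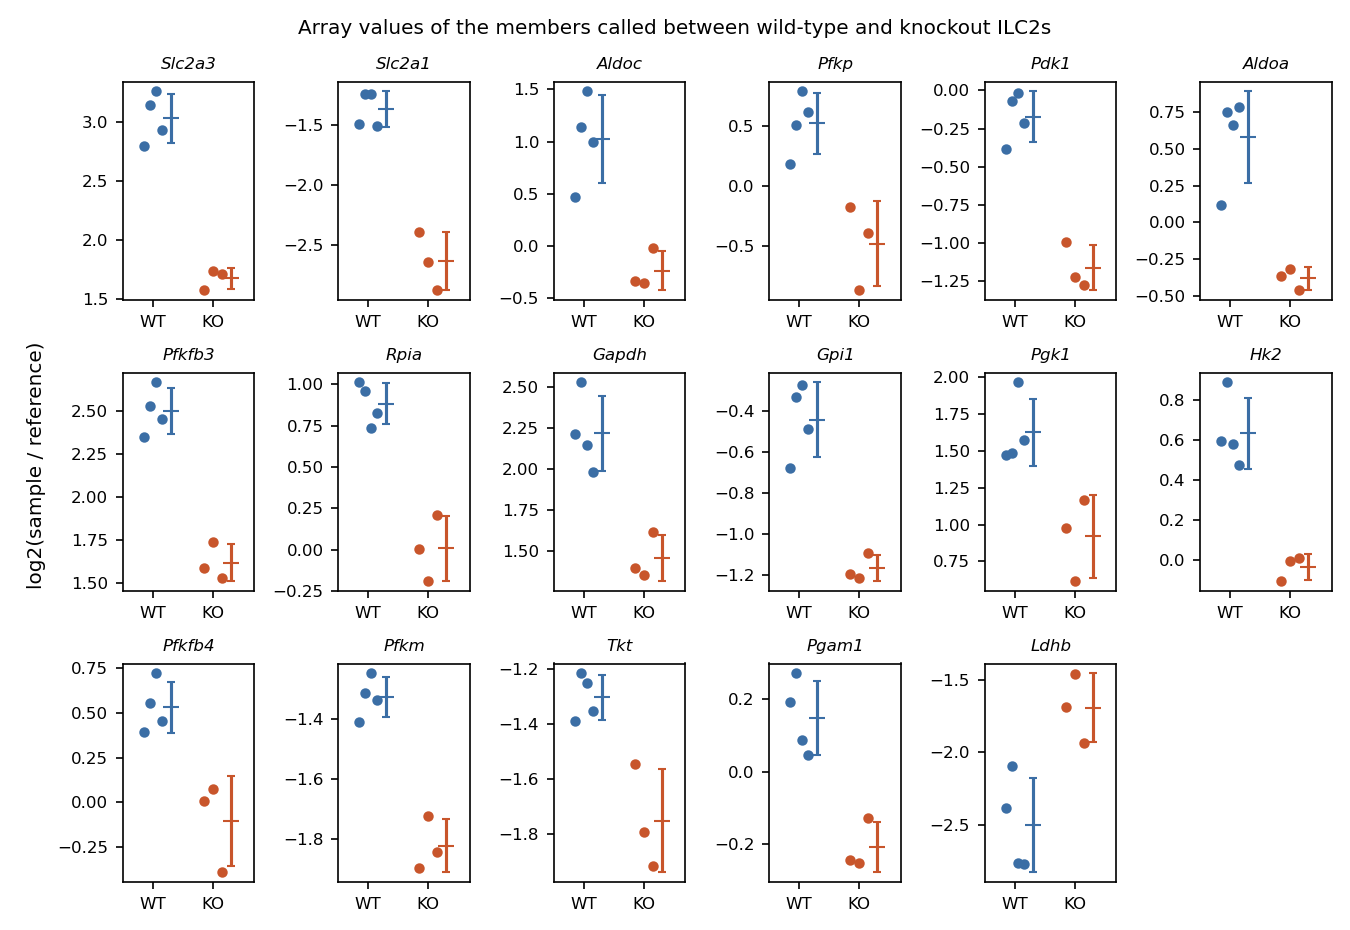
Log2 ratio of sample over reference on each array for the 17 called genes, with 4 wild-type and 3 knockout points and bars for the mean ± SD. In each of the 16 genes that fell the knockout points lie below the wild-type points, and in Ldhb they lie above.

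Of the 4 bifunctional enzymes that make and break down fructose 2,6-bisphosphate, the strongest activator of phosphofructokinase, 2 fell. Pfkfb3, the form with the highest kinase over phosphatase activity, read 2.35, 2.53, 2.67 and 2.46 in wild type and 1.58, 1.74 and 1.53 in the knockout (-0.88 ± 0.10, SE; 1.85-fold; adjusted p = 0.00083). Pfkfb4 read 0.39, 0.55, 0.72 and 0.45 against 0.01, 0.07 and -0.39 (-0.63 ± 0.13, SE; adjusted p = 0.0173). In both the groups stood apart, with knockout array 3 the lowest for Pfkfb4. Pfkfb3 has a dim second probe, above background on 3 wild-type arrays and 1 knockout array, which differed by 0.04. Pfkfb1 and Pfkfb2 differed by 0.09 and 0.14, with overlapping groups.

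In the lower steps the ratios of Gapdh, Pgk1 and Pgam1 fell. None of these 3 was called in the sample channel alone, where they differed by -0.22, -0.08 and -0.22. Gapdh, which oxidises glyceraldehyde 3-phosphate, read 2.22, 2.53, 2.15 and 1.99 in wild type and 1.40, 1.36 and 1.62 in the knockout (-0.76 ± 0.13, SE; adjusted p = 0.00767). Pgk1, the first ATP-making enzyme of the pathway, read 1.48, 1.49, 1.97 and 1.57 against 0.98, 0.61 and 1.17 (-0.71 ± 0.16, SE; adjusted p = 0.0256). Pgam1, the phosphoglycerate mutase of most tissues, read 0.19, 0.27, 0.09 and 0.05 against -0.24, -0.25 and -0.13 (-0.36 ± 0.09, SE; adjusted p = 0.0357). The groups did not overlap in any of these 3. Gapdh has 7 probes, of which 6 were called with differences from -0.60 to -0.78 and the other stood at -0.25. The remaining genes of the lower steps were not called. Eno1, the main enolase, differed by -0.36 with overlapping groups (0.28, 0.49, 0.05 and -0.01 against -0.06, 0.09 and -0.50; adjusted p = 0.272). Eno3, the muscle enolase, differed by -0.21 without overlap (adjusted p = 0.158) and the neuronal Eno2 by -0.09. Pkm, the pyruvate kinase of lymphocytes, differed by -0.21 (95% interval -0.47 to 0.05), the liver form Pklr by -0.03 and Pgam2, the muscle mutase, by 0.09.

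The sample and reference channels were also read apart, because the ratio moves with either. In most members the ratio and the sample channel moved alike: Slc2a1 read 13.77, 14.19, 13.92 and 13.85 in the sample channel (log2 intensity) in wild type and 12.87, 12.78 and 12.58 in the knockout, a difference of -1.19. In 4 members the reference channel differed by more than 0.5, which happened in 0.402% of all genes: by 0.70 in Aldoa, 0.55 in Gapdh, 0.63 in Pgk1 and -0.55 in Slc2a3. By limma none of these 4 reference differences was called after adjustment over all genes, although each had an unadjusted p under 0.05. In the other 37 genes none exceeded 0.142 in size. In the sample channel Aldoa read 17.09, 17.17, 17.53 and 16.95 against 16.90, 16.79 and 17.06, Gapdh differed by -0.22 and Pgk1 by -0.08. The wild-type and knockout levels of Aldoa overlapped there, and in Aldoa, Gapdh and Pgk1 the reference channel held the larger part of the ratio's fall, whereas Slc2a3 fell further in the sample channel (-1.92). Of the 16 fallen genes, 10 were also called in the sample channel alone, and Aldoa, Pfkfb4, Gapdh, Pgk1, Pgam1 and Tkt were not. Hk1 and Tpi1 were called there in addition.

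**Figure D3:**
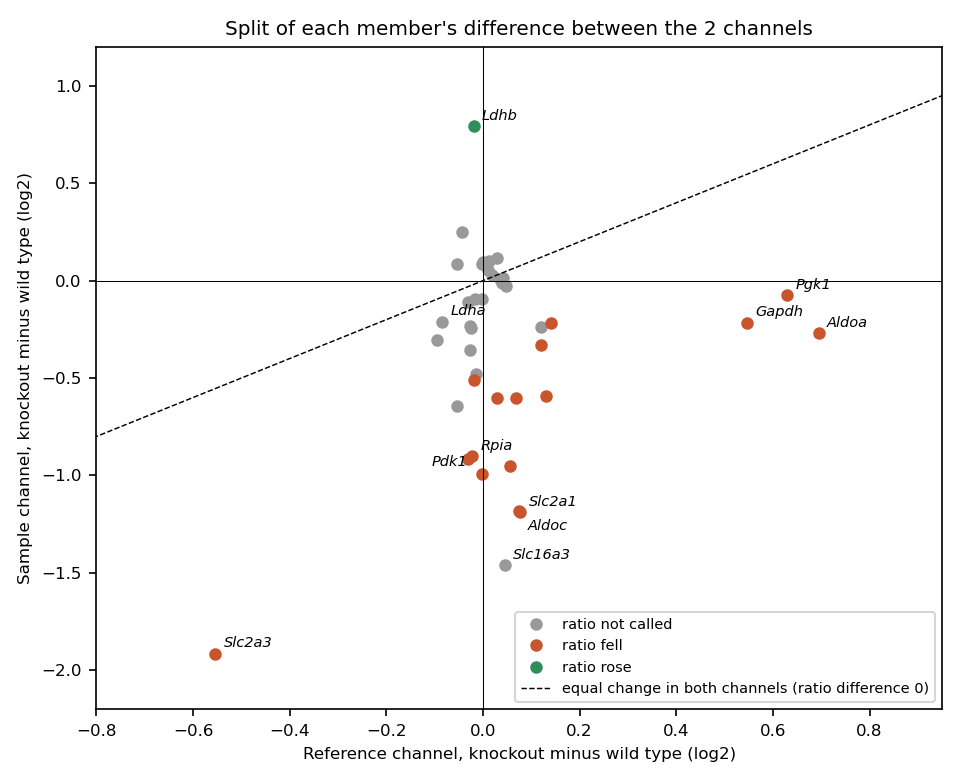
Difference in the sample channel (vertical) against difference in the reference channel (horizontal), both in log2 intensity and knockout minus wild type, for the 41 genes. The dashed line marks equal change in both channels, and colour gives the call on the ratio. Most points lie near 0 on the horizontal reference axis, with Aldoa (0.70), Pgk1 (0.63) and Gapdh (0.55) far to the right and Slc2a3 (-0.55) far to the left.

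Among the genes of pyruvate and lactate handling, Pdk1 fell and Ldhb rose. Pdk1, a kinase that switches pyruvate dehydrogenase off, read -0.38, -0.07, -0.02 and -0.21 in wild type and -1.0, -1.22 and -1.27 in the knockout, a 1.99-fold fall (-0.99 ± 0.11, SE; adjusted p = 0.00091). Ldhb, the lactate dehydrogenase subunit of heart muscle, read -2.38, -2.09, -2.77 and -2.77 against -1.69, -1.46 and -1.93 (0.81 ± 0.18, SE; 1.76-fold higher; adjusted p = 0.0247). All knockout arrays lay above all wild-type arrays for Ldhb and below them for Pdk1. Ldha, the subunit that dominates in glycolytic cells, read 0.07, -0.06, -0.18 and -0.39 against -0.16, -0.11 and -0.54. Its groups overlapped, at a difference of -0.13 (95% interval -0.43 to 0.18; adjusted p = 0.703), and none of its 3 probes was called. The other kinases differed by 0.01 (Pdk2), -0.08 (Pdk3) and -0.08 (Pdk4).

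Slc16a3, the lactate exporter MCT4, had the widest spread of the 41. It read 1.18, 1.39, 1.1 and 0.16 in wild type and 0.36, -0.19 and -1.81 in the knockout. Wild-type array 4 lay below knockout array 1, so the groups overlapped, and the difference of -1.51 ± 0.47 (SE) was not called (adjusted p = 0.0967). It was 0.19 within slide 1 and -2.18 within slide 2. Its difference was -1.96 without knockout array 1 (adjusted p = 0.0358), -1.14 without wild-type array 4 and knockout array 3 together (adjusted p = 0.0107) and -1.71 with Xist minus Ddx3y as a covariate (adjusted p = 0.00478), each past the threshold, and -0.87 without knockout array 3. Slc16a1, the transporter MCT1, differed by -0.07 with overlapping groups.

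In the pentose phosphate pathway the oxidative genes were not called and 2 of the 4 non-oxidative genes fell. Rpia, which makes ribose 5-phosphate, read 1.01, 0.96, 0.73 and 0.83 in wild type and 0.00, -0.19 and 0.21 in the knockout (-0.88 ± 0.11, SE; 1.84-fold; adjusted p = 0.00186). Tkt, a transketolase that links the pathway back to glycolysis, read -1.39, -1.22, -1.25 and -1.35 against -1.55, -1.79 and -1.92 (-0.45 ± 0.10, SE; adjusted p = 0.0284). For both genes all 3 knockout arrays lay below all 4 wild-type arrays. Taldo1, the transaldolase, differed by 0.05 (95% interval -0.12 to 0.22). The oxidative enzymes G6pdx, Pgls and Pgd, which make the NADPH, differed by -0.05, 0.10 and -0.03, with 95% intervals of -0.29 to 0.19, -0.21 to 0.41 and -0.24 to 0.19. Rpe, the epimerase, read -0.12, -0.13, -0.10 and -0.14 against 0.38, -0.16 and 0.28 (0.29, adjusted p = 0.228), and was called without knockout array 2 (0.45, adjusted p = 0.023).

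Isoforms were then compared with each other array by array, as the difference of their log ratios. With 4 against 3 arrays the smallest two-sided exact permutation p is 0.0571, so no pair could reach 0.05, and over the 15 pairs the smallest adjusted p was 0.107. In 8 pairs the groups did not overlap. The share among other gene pairs was not computed, and among single genes it was 18.3% in either direction. Pdk2 (0.01), Pdk3 (-0.08), Hk3 (0.09) and Pgam2 (0.09) had differences near 0 by themselves. Their pairs therefore mostly restate the difference of the other gene. Ldhb minus Ldha read -2.45, -2.03, -2.59 and -2.38 in wild type and -1.53, -1.35 and -1.39 in the knockout, a change of 0.94 ± 0.15 (SE). Pdk2 minus Pdk1 changed by 1.0 ± 0.14 (SE), Pdk3 minus Pdk1 by 0.92 and Slc2a6 minus Slc2a1 by 0.94. The other pairs without overlap were Hk3 minus Hk1 (0.68), Pgam2 minus Pgam1 (0.44), Pfkm minus Pfkl (-0.27) and Pfkfb4 minus Pfkfb3 (0.25). The pairs that overlapped included Slc2a3 minus Slc2a1 (-0.09, exact p = 0.686), Hk2 minus Hk1 (-0.08, exact p = 0.857) and Slc16a3 minus Slc16a1 (-1.43, exact p = 0.114). For these the arrays did not show an unequal change, nor that the isoforms changed alike.

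**Figure D4:**
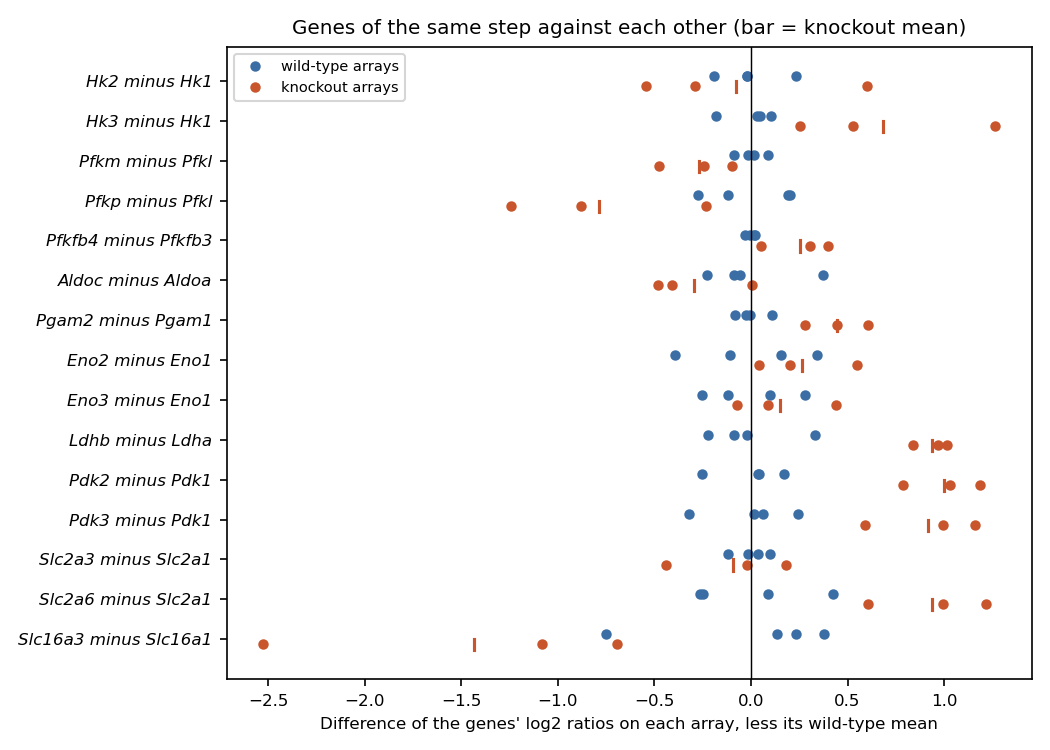
Difference of log2 ratios between isoforms on each array, less its mean over the wild-type arrays, for 15 pairs, with 4 wild-type and 3 knockout points and a bar at the knockout mean. The groups stand apart in 8 pairs, Ldhb minus Ldha and Pdk2 minus Pdk1 among them, and overlap in 7, among them Slc16a3 minus Slc16a1.

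The arrays lay on 3 slides: slide 1 held knockout array 1 and wild-type array 4, slide 2 held wild-type array 1 and knockout arrays 2 and 3, and slide 3 held wild-type arrays 2 and 3. All 16 fallen genes were lower in the knockout within slide 1 and within slide 2, and the median difference over the 41 genes was -0.29 and -0.32 within them. With slide as a block, 5 of the 41 fell, where 0.967% of all genes fell: Slc2a1 (-1.10, adjusted p = 0.0122), Slc2a3 (-1.20, adjusted p = 0.00516), Pfkfb3 (-0.78, adjusted p = 0.0265), Pdk1 (-0.83, adjusted p = 0.0118) and Rpia (-0.93, adjusted p = 0.0346). None rose in this limma fit, where 0.919% of all genes did; Ldhb, at 0.86 with an adjusted p of 0.177, was the 1 member higher at an unadjusted p under 0.05. The 11 fallen genes that were no longer called kept their sign, which was likewise fixed by groups that did not overlap. Their adjusted p was 0.0582 for Gpi1, 0.0681 for Aldoa, 0.0738 for Hk2 and for Pfkp, 0.0741 for Aldoc, 0.0978 for Gapdh and 0.116 for Pfkm. It was 0.236 for Pfkfb4, 0.264 for Tkt, 0.266 for Pgam1 and 0.304 for Pgk1. Pgk1 and Tkt were also not called without knockout array 2 or wild-type array 4, Tkt not without wild-type arrays 2 or 3 or knockout array 3, and Pgam1 only with all arrays or without knockout array 3. Pfkfb4 was not called without wild-type array 2. Ldhb was not called without wild-type array 3 or 4, nor without knockout array 1 (0.81, adjusted p = 0.0571) or 2 (0.70, adjusted p = 0.0939).

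**Figure D5:**
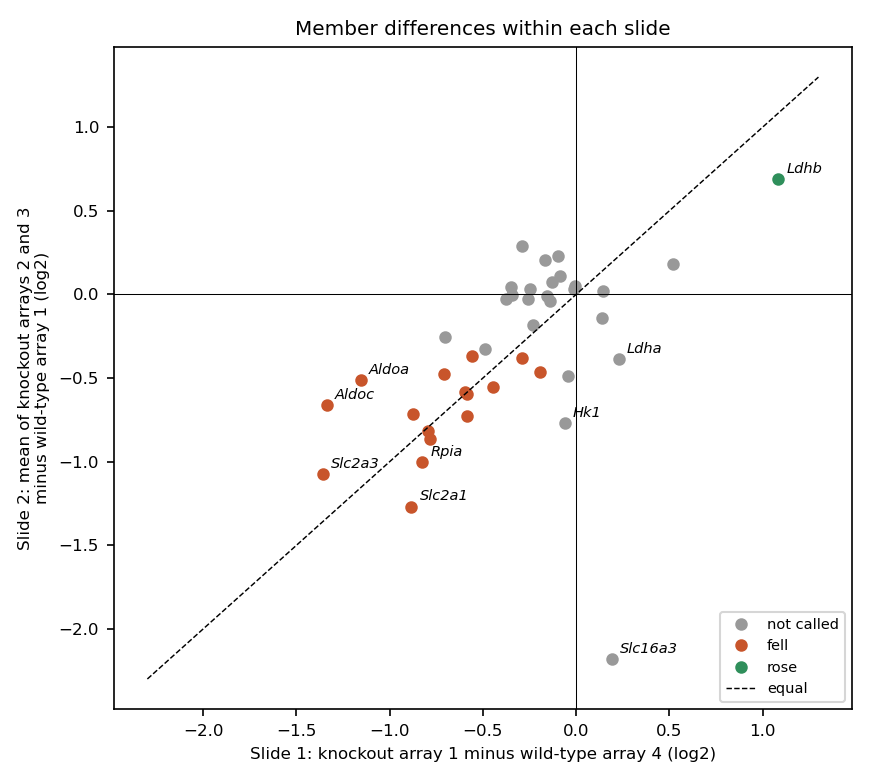
Log2 difference, knockout minus wild type, within slide 1 (horizontal, 1 array of each group) and within slide 2 (vertical, 1 wild-type and 2 knockout arrays) for the 41 genes, with a dashed line where the slides are equal. The 16 genes that fell lie below 0 within both slides, Ldhb lies above 0 within both (1.08 and 0.69), and Slc16a3 stands apart (0.19 and -2.18). For the 16 genes and Ldhb the side of 0 was fixed, because their groups do not overlap over all arrays.

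Another 67 genes of the same and joining pathways were listed, of which 59 could be tested. Of the 59, 9 fell (15.3%) and 1 rose, and their median difference was -0.08. Pygl, the liver-type glycogen phosphorylase, read 1.90, 2.55, 2.37 and 2.06 in wild type and 0.44, 0.17 and 0.12 in the knockout, a 3.94-fold fall (-1.98 ± 0.16, SE; adjusted p = 0.000151) that held with slide as a block (adjusted p = 0.00138). It was the 1 gene of the 59 called in that fit. Glycogen genes fell in 5 of 10, among them Pygl, the branching enzyme Gbe1 (-1.03), the synthase Gys1 (-0.68) and the kinase Gsk3b (-0.66). Bsg, the chaperone of MCT1 and MCT4, fell by 0.97 (adjusted p = 0.00422), and Pgm1, which joins glycogen to glycolysis, by 0.80 (adjusted p = 0.00911). Prps2, which makes the ribose donor of nucleotides, rose by 0.61 (adjusted p = 0.00819). None of 9 regulators of these genes was called by limma (3 had an unadjusted p under 0.05), Hif1a at 0.41 (adjusted p = 0.612) and Myc at 0.02 (adjusted p = 0.969) included, and Arnt, the partner of Hif1a, at -0.48 had an adjusted p of 0.0524.

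Markers of cell types and of division were read beside these results. Of 12 ILC2 markers 3 fell (Gata3, Il1rl1 and Ly6a), 9 were not called, and 11 differences were below 0. The summed sample-channel level of the 12 ran from 752000 to 1020000 in wild type and from 493000 to 628000 in the knockout. Bright genes weigh most in such a sum. Icos, the brightest of the 12 in wild type, differed by -0.68 in the sample channel and -0.57 in the reference channel. Its ratio differed by -0.11 and was not called. Of 5 ILC3 markers 3 rose, Il17a and Il17f among them, with sums of 804 to 889 and of 19200 to 29300. The sum of 7 T cell markers, none called by limma and 3 at an unadjusted p under 0.05, ran from 10900 to 19700 and from 11400 to 19900. None of 8 proliferation genes was called by limma, 6 had an unadjusted p under 0.05, all 8 differences were above 0, and their sum ran from 83400 to 132000 and from 129000 to 161000. B cell markers summed to 15800 to 19500 and 13500 to 16700, NK cell markers to 780 to 833 and 873 to 967, and myeloid markers to 2860 to 3480 and 3330 to 3490. Of the defining markers, Ncr1 (NK cells), Fcer1a (mast cells) and Hbb-bs (red cells) were not above background. Of 4 mast cell markers tested, Cpa3 (-0.51) and Hdc (-0.36) fell, Mcpt1 (0.03) and Tpsb2 (0.01) were not called, and the list summed to 915 to 1120 in wild type and 883 to 937 in the knockout. Of 2 red cell markers tested, Hba-a1 (-0.85) fell and Hbb-bt (0.11) was not called, with sums of 828 to 1260 and 620 to 675. The part of these shifts in the glycolytic results was not tested.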

How the data were processed

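Microarray intensity values and log10 ratios of red over green were deposited as scanner output. The software was Agilent Feature Extraction, as release 11.0.1.1 per the file headers or 10.7.3.1 per the submitters' processing notes. A deposited value table of the series gives log2 ratios that equalled the scanner's log10 ratio turned to log2 to within 0.001, with column medians of 0.163 to 0.254. Its scale and direction (sample over reference) are therefore known, and no further centring was found. Per the labels, Cy5 carried the ILC2 sample and Cy3 the reference on every array, with no dye swap.

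Median signals were background-corrected with normexp (offset 50) and normalized within each array by loess in limma 3.58.1 under R 4.3.3, with control spots at weight 0 and 2597 outlier spots left out. Spots of a probe were averaged. Probes were named by accession through a RefSeq table (GRCm38.p6): 26581 of 39429 probes were named. A gene entered the test with red signal well above background on 3 or more arrays and with 2 or more values per group, and was represented by its probe of highest mean red signal. Groups were compared with lmFit and eBayes, adjusted by Benjamini-Hochberg over 25346 genes at 0.05. The fit was tested on simulated data. Isoform pairs were compared by an exact permutation test, two-sided. The design named mean signals, but the files used here hold medians. Probe sequences were not used here, so cross-hybridisation among isoforms and processed gene copies was not assessed.

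The members, the other lists and the rule for named genes (every member, and other pathway genes that were called or are regulators) were chosen with earlier results of these data known. Some listed genes are not reported here by name. Replicates are separate pools of mice per the labels. Alternatives covered background, normalization, the series table, filters, probe choice, variance, slide, replicate number, arrays left out and a minimum change.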

Additional observations from a re-analysis of the deposited data

Results flagged for a closer look

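Tpi1, the triose phosphate isomerase, read 1.25 on wild-type array 2 and 0.85 to 0.87 on the other 3 wild-type arrays. The gap to its nearest neighbour was 0.94 of the group's range, above Dixon's 95% critical value for 4 samples. Chance flags about 1 in 20 such groups, and 41 genes were examined.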

How the results depend on the processing

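Over 27 alternatives, Slc2a1 and Slc2a3 were called in each, and Pfkfb3, Pdk1 and Rpia in 26. Among 459 fits of the 17 called members, 75 missed the threshold and none changed sign, and among 647 fits of the 24 others, 11 passed. With slide as a block or arrays left out, the sign of the 17 could not change, because their groups did not overlap. The count of 1905 called genes became 478 with slide as a block, 210 with a minimum log2 change of 0.5 and 1137 without wild-type array 4 and knockout array 3, and ran from 1262 to 1897 with each array left out. It was 2122 with slide as a random block (consensus correlation -0.135) and 2358 with the Xist minus Ddx3y covariate, with 16 and 19 members and 11 and 12 other pathway genes lower. The count of 16 members that fell became 5 with slide as a block and 2 with the minimum change, and ran from 13 to 16 with each array left out. The count of members that rose, 1, became 0 with the scanner log ratio, the series value table, slide as a block and the minimum change, and 0 to 1 with each array left out. Without knockout array 2 that 1 was Rpe and not Ldhb. The median member difference became -0.25 with median centring, -0.23 in the sample channel alone, -0.27 with the mean of a gene's probes and -0.26 without both of those arrays, and ran from -0.37 to -0.25 with each array left out. Of the other pathway genes, the count of 9 that fell became 1 with slide as a block, 1 with the minimum change and 4 without both of those arrays (5 to 9 with each array left out). The count that rose, 1, became 3 with median centring, 3 in the sample channel, 2 with the mean of probes and 0 with slide as a block, the minimum change or without both of those arrays (1 to 1 with each array left out). Pfkfb4 minus Pfkfb3 reversed to -0.21 with the mean of a gene's probes. That mean takes in the dim second probe of Pfkfb3, but not that of Pfkfb4, which did not pass the filter. With median centring 55.5% of 1614 calls were higher, against 43.6%, and Gpi1, Gapdh, Pgk1, Pgam1 and Tkt were not called. For the rest, the cause was not tested. The replicate numbers were not taken as pairs. After each group's mean was removed from every gene, same-numbered arrays correlated at 0.0363, 0.24 and 0.0208. Wild-type arrays 1 and 3 then correlated best with a knockout array of another number. With so few arrays per group, these values cannot decide whether the samples were paired. With the replicate number as a block, 1081 genes were called, the median member difference was -0.25, 12 members fell, and of the other pathway genes 5 fell and 0 rose. Keeping all outlier spots was added after seeing the data and gave 1781 calls.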
